A study of Homo sapiens with 12 samples.

Results

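The Notch genes described here are 10 members of the pathway, 3 receptors (NOTCH1, NOTCH2 and NOTCH3), 3 ligands (DLL1, DLL3 and JAG1) and 4 target genes (HES1, HES4, HES5 and HEY1). They were taken by gene symbol from a table of 65969 Ensembl gene identifiers. All 10 passed the filter on low counts and were among the 24898 genes tested. Each gene was followed across all 12 RNA libraries of human embryoid bodies, by cell line and by hairpin.

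Notch receptors are single-pass membrane proteins that are activated by ligands on neighbouring cells. Ligand binding leads to cleavage by ADAM proteases and then by γ-secretase, and the freed intracellular domain joins the DNA-binding protein RBPJ and a Mastermind protein to switch on HES and HEY genes. HES and HEY proteins repress proneural genes, and in the early nervous system this keeps part of the cells as progenitors while their neighbours become neurons.

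The 2 lines, H1 and MEL1, are widely used human embryonic stem cells, here grown for 10 days as embryoid bodies, the aggregates in which pluripotent cells differentiate. Both lines carried lentiviral vectors with a doxycycline-inducible short hairpin RNA, selected with puromycin, and all 7 groups, controls included, received doxycycline at 2 µg/ml and started from 500 cells per microwell. The hairpins KD1, KD2 and KD3 target METTL14, a subunit of the enzyme complex that writes N6-methyladenosine on RNA, and SCR is the control hairpin. H1 has 2 libraries each with SCR, KD1, KD2 and KD3, and MEL1 has 1 with SCR, 2 with KD1 and 1 with KD2. The sources used here do not say whether the transduced cells were clones, or whether libraries of a group came from separate cultures, so p-values measure only the spread between these libraries.

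The MEL1 SCR library held 15963241 estimated counts and the other 11 held 36609628 to 43508287. METTL14 stood at 30.0%, 44.1% and 30.4% of the mean SCR level in H1 with KD1, KD2 and KD3, and at 14.0% and 17.9% in MEL1 with KD1 and KD2. The libraries differed in how levels followed the GC content of transcripts. Across 15601 genes, Spearman's rho between GC content and how far a library lay from the mean of its line was -0.568 in MEL1 SCR, 0.362 and 0.429 in MEL1 KD1 and -0.0595 in MEL1 KD2. It was 0.222 and -0.429 in the 2 H1 SCR libraries, and lay between -0.513 and 0.567 in the H1 knockdown libraries. The Notch genes are rich in GC, with a median of 60.6% against 48.7% over all tested genes with an annotated transcript, from 47.3% in HEY1 to 73.9% in HES4. Fold changes are given as deposited unless stated, and for many of the results also after a smooth trend on GC content and transcript length had been removed from each library.

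The promoters of HES1, HES4 and HES5 are shown because the binding motif of RBPJ, the transcription factor at the end of the pathway, sits in these 3 at nearly the same place. The sequences are from RefSeq on GRCh38.p14, which matched 7 of the 10 genes (DLL1, DLL3 and HEY1 were not matched). Each runs 5′ to 3′ on the strand of the gene, from 110 to 48 bases before its start, and capitals mark TGTGGGAA, which holds the RBPJ core GTGGGAA, and TTCACAC. HES1 lies on chromosome 3 (chr3:194136038-194136100, plus strand), HES4 on chromosome 1 (chr1:1000145-1000207, minus strand) and HES5 on chromosome 1 (chr1:2530311-2530373, minus strand).
HES1: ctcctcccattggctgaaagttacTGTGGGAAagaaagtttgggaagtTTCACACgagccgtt
HES4: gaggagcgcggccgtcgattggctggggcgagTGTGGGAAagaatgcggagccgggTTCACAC
HES5: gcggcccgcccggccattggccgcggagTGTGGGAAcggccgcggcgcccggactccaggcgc

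TGTGGGAA begins 86 bases before the start in HES1, 78 in HES4 and 82 in HES5, and HES5 has a second copy on the opposite strand 224 bases before its start. TTCACAC begins 62 bases before the start in HES1 and 54 in HES4, and these letters are not in the HES5 window. ATTGG, the reverse complement of the CCAAT box, lies upstream of TGTGGGAA in each of the 3 genes, at 102, 93 and 95 bases. Both strands of the 250 bases before each start were searched. TGTGGGAA was found in 1.43% of 35116 RefSeq promoters, TTCACAC in 2.48%, both in 0.0826%, ATTGG in 32.0% and GTGGGAA, which every TGTGGGAA contains, in 5.43%. The letters TGTGGGAA are not in the matched promoter windows of NOTCH1, NOTCH2, NOTCH3 and JAG1. They were also not found before the other targets HES6, HEY2, HEYL and NRARP. HEY2 and HEYL had GTGGGAA on the opposite strand, 213 and 178 bases before the start. The HES4 gene model of GENCODE 29 begins inside the HES4 window. A match of letters is a description of the sequence and no binding was measured.

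Levels are given as CPM, the counts of a gene relative to the size of its library, on library sizes normalized with TMM, edgeR's trimmed mean of M-values. Per kilobase of the longest GENCODE 29 transcript, which allows genes to be compared, HES5 led in H1 with 63.6 ± 16.5 CPM per kilobase (SD, n = 8). HES4 followed at 59.8 ± 19.9 and JAG1 at 53.4 ± 5.16, and the ranges of these 3 genes overlapped. NOTCH3, DLL1, HES1, NOTCH2, NOTCH1 and HEY1 came next, from 27.3 down to 15.0 CPM per kilobase, each with a range that overlapped its neighbour's. DLL3 was lowest at 6.62 ± 1.51, below HEY1 in 8 of 8 libraries. In MEL1 the order was different. JAG1 (26.6 ± 6.27, n = 4) and NOTCH3 (25.5 ± 6.80) led and overlapped, HES4 stood behind HES1 and NOTCH2 at 13.0 ± 4.98, and HES5, first in H1, was last at 1.42 ± 1.09 CPM per kilobase. In bulk RNA, fewer cells of a type and less RNA per cell cannot be told apart.

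**Figure D1:**
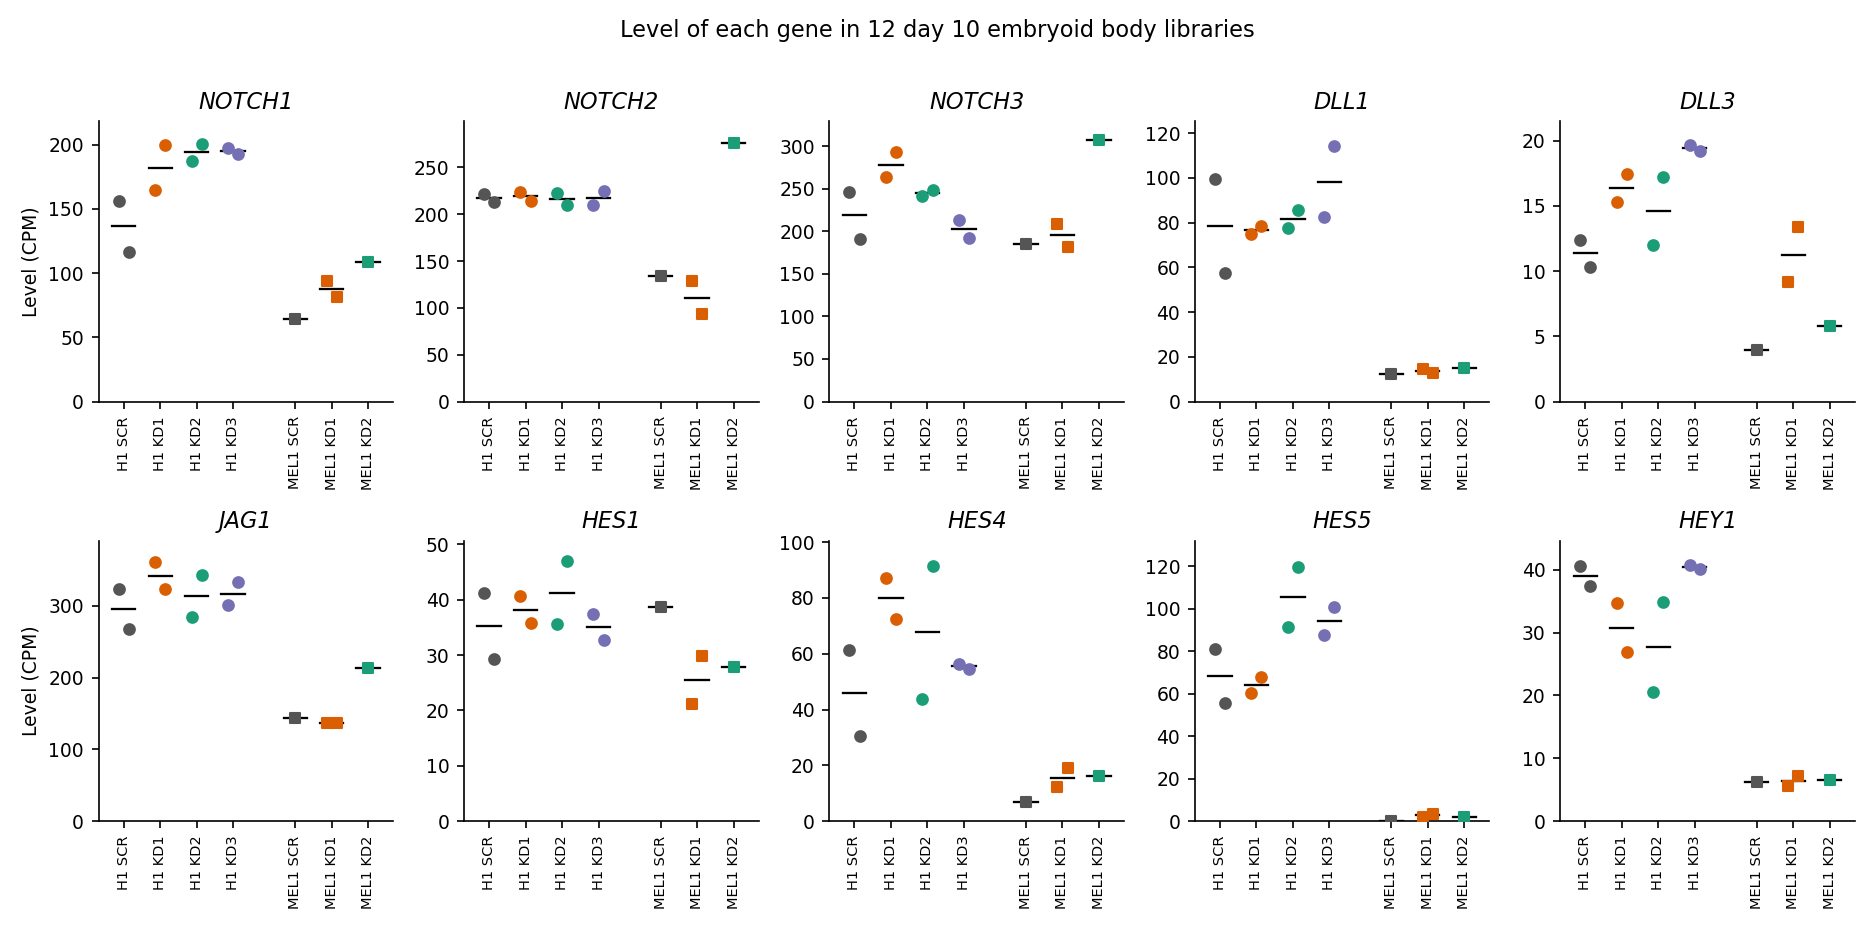
Level of each gene in CPM (linear axis from 0, a separate scale per gene) in the 12 libraries, by line and hairpin. Each point is 1 library, circles for H1 and squares for MEL1, and each bar is the group mean. NOTCH1 is above every SCR library of the same line in 9 of 9 knockdown libraries, and DLL1, HES4, HES5 and HEY1 are far lower in the 4 MEL1 libraries than in the 8 H1 libraries.

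The first comparison asks what depletion of METTL14 does to the Notch genes over both lines, with all 9 knockdown libraries set against all 3 SCR libraries and cell line as a covariate. NOTCH1, DLL3 and HES4 had the clearest differences, all upward, but none of the 10 genes was called by edgeR's quasi-likelihood test at a Benjamini-Hochberg adjusted p under 0.05, where 0.213% of all tested genes were called. At an unadjusted p under 0.05, edgeR had 3 of the 10 (NOTCH1, DLL3 and HES4), against 15.7% of all genes. DESeq2 called 2 (NOTCH1 and DLL3), against 5.0% of all genes. The median log2 fold change of the 10 genes was 0.18, beside 0.05 over all genes tested, and 8 of the 10 were positive, beside 55.1% of all genes.

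Among the receptors, NOTCH1 was the gene that stood apart from SCR in both lines. In H1 the 2 SCR libraries had 156 and 116 CPM, the KD1 libraries 165 and 199.5, the KD2 libraries 187 and 201, and the KD3 libraries 197 and 193. In MEL1 the SCR library had 64.3 CPM, the KD1 libraries 93.5 and 81.2, and the KD2 library 109. No knockdown library overlapped the SCR libraries of its line, 9 of 9 being above every one of them, which held for 3.18% of all genes, and for 8.61% with the 6 H1 knockdown libraries by themselves. Its log2 fold change over both lines was 0.51 (SE 0.12), with an edgeR adjusted p of 0.0838. In the average of the 3 H1 hairpins NOTCH1 rose by 0.48 on the log2 scale (SE 0.13), with an edgeR adjusted p of 0.0441. It was the 1 member called there, where 7.16% of all genes were called and 2.23% were called higher, and DESeq2 called NOTCH1 and DLL3, beside 10.8%.

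The NOTCH1 call in H1 was lost when any of the 6 H1 knockdown libraries (edgeR adjusted p 0.0573 to 0.0907), either MEL1 KD1 library or the second H1 SCR library was left out. Without the second H1 SCR library, the log2 fold change was 0.29 (edgeR adjusted p 0.348), and without the first it was 0.72 (edgeR adjusted p 0.0285). With the GC and length trend removed it was 0.20 (SE 0.08, edgeR adjusted p 0.104) in the H1 average, where 13.4% of all genes were called, and 0.17 (SE 0.11, edgeR adjusted p 0.471) over both lines, where 0.337% of all genes were called and none of the 10. NOTCH1 has a GC content of 62.9%, and the second H1 SCR library, which has the lower NOTCH1 level, is the one with a rho of -0.429.

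NOTCH2 stayed within a narrow range in H1. Its 8 H1 libraries lay between 210 and 225 CPM, and the log2 fold changes of KD1, KD2 and KD3 were 0.01, -0.01 and -0.00 with an SE of 0.14 each, so changes of about that size cannot be told from none. In MEL1 the SCR library had 135 CPM, the KD1 libraries 129 and 93.2, and the KD2 library 276 CPM. The MEL1 KD2 library stands apart for 3 of the genes, since it also had the highest MEL1 level of NOTCH3 (307 CPM, beside 182 to 209 in the other 3) and of JAG1 (213 CPM, beside 136 to 144). The same library had the highest MEL1 levels of the neural crest markers FOXD3 (47.8 CPM, beside 11.7 to 17.1) and TFAP2A (160.5, beside 46.1 to 87.0). So it did of TFAP2B (94.6, beside 27.6 to 55.7) and SOX10 (41.6, beside 15.4 to 18.9). It had the lowest MEL1 levels of the pluripotency markers POU5F1 (240 CPM, beside 496 to 879), NANOG (32.8, beside 44.9 to 81.9) and DPPA4 (259, beside 560 to 592). TDGF1 (102, beside 256 to 362) and LIN28A (1517, beside 1620 to 1818) were also lowest there. The part of these markers in its NOTCH2, NOTCH3 and JAG1 levels was not tested. The MEL1 average for NOTCH2 was 0.38 (SE 0.17, edgeR adjusted p 0.209), and -0.28 without the KD2 library. The near-identical paralogs NOTCH2NLA, NOTCH2NLB, NOTCH2NLC and NOTCH2NLR are listed at 0 to 7.36 CPM, and how reads were divided between them and NOTCH2 is uncertain.

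NOTCH3 levels were ordered by hairpin in H1. The KD1 libraries had 264 and 293 CPM, the KD2 libraries 241 and 249, the KD3 libraries 213 and 192, and the SCR libraries 246 and 191. KD3 was lower than KD1 by a log2 difference of -0.46 (SE 0.14), with an edgeR adjusted p of 0.0847 for that pair, where 4.63% of all genes were called, and the test across the 3 hairpins gave an edgeR adjusted p of 0.166. The log2 fold change of NOTCH3 over both lines was 0.21 (SE 0.16) as deposited and -0.14 (SE 0.11) with the GC and length trend removed, and neither passed.

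**Figure D2:**
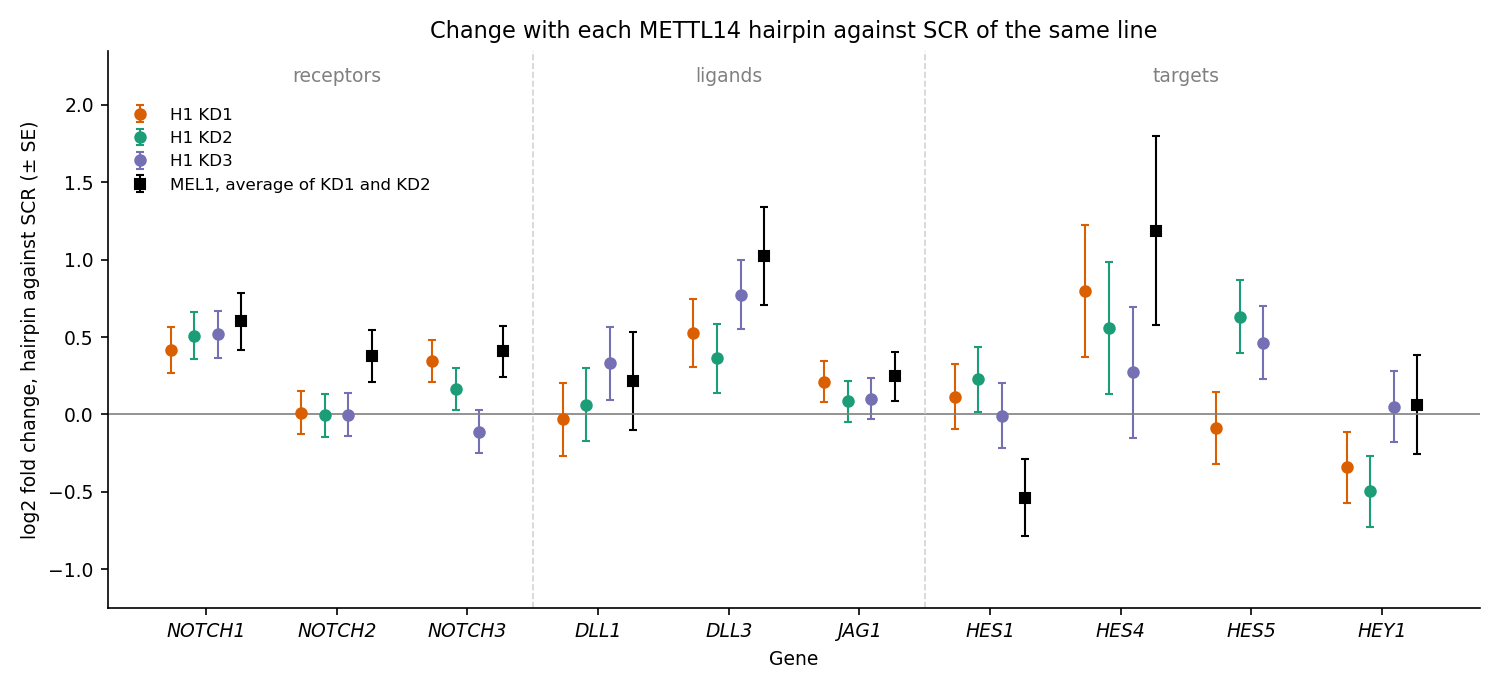
Log2 fold change against SCR of the same line (vertical axis, with SE) for each gene, for the 3 H1 hairpins (circles) and the MEL1 average of KD1 and KD2 (squares). HES5 in MEL1 is not drawn because its SCR library is listed at 0. NOTCH1 lies between 0.42 and 0.60 in all 4 comparisons, and NOTCH2 lies at 0 for the 3 H1 hairpins.

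DLL3, a divergent ligand that acts within the cell on Notch signalling rather than by activating receptors on neighbours, had larger differences from SCR over both lines than DLL1 and JAG1. Its H1 libraries had 12.4 and 10.3 CPM with SCR, 15.3 and 17.4 with KD1, 12 and 17.2 with KD2, and 19.7 and 19.2 with KD3. The MEL1 libraries had 3.95 CPM with SCR, 9.13 and 13.3 with KD1, and 5.76 with KD2. Knockdown libraries were above every SCR library of their line in 8 of 9 cases, the exception being the first H1 KD2 library. The share of all genes with 8 of 9 was not counted. All 9 were above for 3.18% of all genes, and the 3 MEL1 knockdown libraries by themselves for 31.6%. The log2 fold change of DLL3 over both lines was 0.75 (SE 0.24, edgeR adjusted p 0.157), and with KD3 in H1 it was 0.77 (SE 0.22, edgeR adjusted p 0.0882). With the GC and length trend removed, 3 of the 10 genes passed with KD3 in H1, where 9.06% of all genes were called. They were DLL3 (log2 0.85, SE 0.17, edgeR adjusted p 0.00900), NOTCH1 (0.35, SE 0.09, edgeR adjusted p 0.0336) and HES5 (0.61, SE 0.16, edgeR adjusted p 0.0441).

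DLL1, an activating ligand of neural progenitors on their way to becoming neurons, had 99.3 and 57.3 CPM with SCR in H1, and the 6 H1 knockdown libraries lay from 74.9 to 114 CPM with a median of 80.5. The knockdown libraries lay between the 2 SCR libraries in 5 of 6 cases, and the H1 average was 0.12 (SE 0.19). In MEL1, DLL1 had 12.3 CPM with SCR, 14.4 and 12.6 with KD1, and 15.2 with KD2. JAG1, the other activating ligand, had 323 and 268 CPM with SCR in H1 and 285 to 361 CPM with the hairpins, with an H1 average of 0.13 (SE 0.11). Neither gene passed in H1 or over both lines with edgeR. DLL1 overlaps FAM120B on the opposite strand and AL078605.1 on the same strand, and JAG1 overlaps AL050403.2 on the opposite strand. The library kit keeps strand, but the strand setting of the counting is not given in the sources used here, so reads of these pairs may be mixed.

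Among the targets, HES5 showed the difference that passed in MEL1. The MEL1 SCR library is listed at 0 counts for HES5, and the knockdown libraries had 78 and 121 counts with KD1 and 86 with KD2, or 1.99, 3.47 and 1.93 CPM. Against a floor of 3 counts in the SCR library, HES5 was at least 13.4-fold higher with KD1 and at least 9.46-fold higher with KD2. It was the 1 member called in the MEL1 average by edgeR (adjusted p 0.0261), where 4.45% of all genes were called and 2.93% were called higher. At an unadjusted p under 0.05, edgeR had 5 members, beside 22.7% of all genes, and DESeq2 called NOTCH1, DLL3 and HES5, beside 8.61%. HES5 was also called in each of the 17 alternative fits that kept the SCR library, and with the GC and length trend removed its edgeR adjusted p was 0.0251. With median-of-ratios scaling, edgeR called 516 genes higher and 513 lower in the MEL1 average, in place of 730 and 377. The comparison rests on 1 SCR library, the smallest of the 12 and one with a GC rho of -0.568, which is assumed to vary like the other groups.

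In H1, HES5 was far more abundant and its level varied with the hairpin. The SCR libraries had 81.1 and 55.4 CPM, the KD1 libraries 60.5 and 67.9, the KD2 libraries 91.6 and 120, and the KD3 libraries 87.6 and 101. KD1 thus lay within the SCR range while all 4 KD2 and KD3 libraries lay above it, a split whose share over all genes was not counted. The log2 fold change was -0.09 (SE 0.24) with KD1, 0.63 (SE 0.24) with KD2 and 0.46 (SE 0.24) with KD3. KD2 gave 0.63 with the trend removed (SE 0.16, edgeR adjusted p 0.0541), where 5.12% of all genes were called. As deposited, the test across the 3 hairpins gave an edgeR adjusted p of 0.210. With the GC and length trend removed that test gave an edgeR adjusted p of 0.00586 for HES5, and it also called DLL3 (0.0371) and NOTCH1 (0.0381), in a fit where 9.34% of all genes were called. The difference of the knockdown effect between the lines had an edgeR adjusted p of 0.0638 for HES5, and of 0.0217 with DESeq2, and no size is given because the MEL1 SCR level is 0.

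HES4 was variable between libraries of 1 group. Its H1 libraries had 61.3 and 30.6 CPM with SCR, 87.2 and 72.4 with KD1, 43.9 and 91.4 with KD2, and 56.2 and 54.7 with KD3. The MEL1 libraries had 6.95 CPM with SCR, 12.3 and 18.9 with KD1, and 16.1 with KD2. All 3 MEL1 knockdown libraries were above their SCR library, as for 31.6% of all genes, and 3 of the 6 H1 knockdown libraries were above both of theirs. The log2 fold change of HES4 over both lines was 0.73 (SE 0.26, edgeR adjusted p 0.205), and 0.36 (SE 0.17) with the GC and length trend removed.

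HES1, a Notch target in many tissues, had values on opposite sides of SCR in H1 and MEL1 that did not pass. In H1 it had 41.2 and 29.4 CPM with SCR and from 32.7 to 46.9 CPM with the hairpins, a log2 average of 0.11 (SE 0.17). In MEL1 it had 38.8 CPM with SCR, 21.2 and 29.9 with KD1, and 27.9 with KD2, a log2 average of -0.54 (SE 0.25, edgeR adjusted p 0.230). The difference between the lines in the effect of KD1 and KD2 was -0.71 (SE 0.31), with an edgeR adjusted p of 0.273. HEY1, which encodes a related repressor, had 40.6 and 37.5 CPM with SCR in H1, 34.7 and 26.9 with KD1, 20.5 and 34.9 with KD2, and 40.7 and 40.2 with KD3. Its MEL1 libraries had 6.2 CPM with SCR, 5.55 and 7.20 with KD1, and 6.59 with KD2. In H1, KD1 and KD2 were below both SCR libraries in 4 of 4 cases and KD3 was not. This split was described after the values were seen, and its share over all genes was not counted. HEY1 passed no test of the hairpins with edgeR (adjusted p 0.327 across the hairpins).

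Taken hairpin by hairpin in H1, edgeR called 0 of the 10 genes with KD1, where 11.1% of all genes were called, 0 with KD2 (1.54%) and 0 with KD3 (2.98%). At an unadjusted p under 0.05, edgeR had 3 with KD1, 2 with KD2 and 2 with KD3, beside 26.6%, 16.1% and 19.0% of all genes. DESeq2 called NOTCH1 with each hairpin and DLL3 with KD3, where it called 14.6%, 4.61% and 6.84% of all genes. The 3 comparisons share the same 2 SCR libraries. The test across the hairpins called 0 members with edgeR and 0 with DESeq2, beside 3.54% and 8.93% of all genes, and 2 (NOTCH3 and HES5) had an unadjusted edgeR p under 0.05. For the difference of the knockdown effect between the lines, edgeR called 0 members beside 0.598% of all genes, with 2 (HES1 and HES5) at an unadjusted p under 0.05, and DESeq2 called HES5, beside 3.01%.

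The filter on low counts bears on these calls, although every member passes it. When genes with few counts were kept in the fit, the fold changes of the members were nearly the same and the calls by edgeR were more. In the H1 average NOTCH1, DLL3 and HES4 were called, where 8.11% of all genes were called. NOTCH1 and HES4 were called with KD1 (10.4% of all genes), NOTCH1, HES4 and HES5 with KD2 (4.35%), and NOTCH1, DLL3 and HES5 with KD3 (5.70%). Across the hairpins HES4 and HES5 were called (8.43%), in the MEL1 average NOTCH1, DLL3, HES4 and HES5 (6.73%), and for the difference between the lines HES5 (3.41%). HES4 shows the difference in spread, since its log2 fold change in the H1 average was 0.54 in both fits, with an SE of 0.36 in the filtered fit and 0.13 in the unfiltered one, while its 2 SCR libraries differ as 61.3 and 30.6 CPM. A model of group means over both lines, which sets aside differences between hairpins and lines, called NOTCH1, DLL3 and HES5, where 9.95% of all genes were called.

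**Figure D3:**
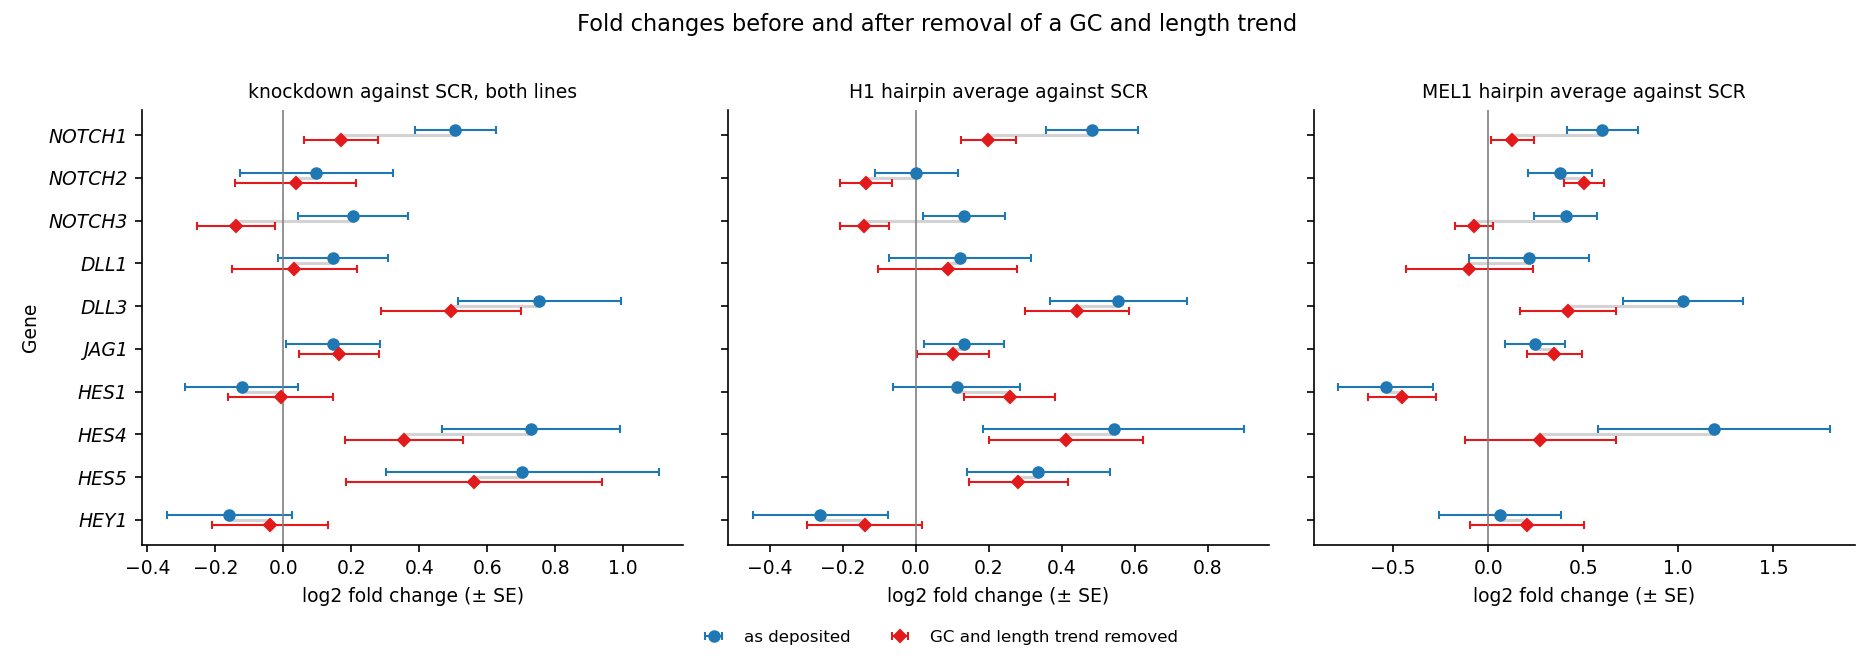
Log2 fold change (horizontal axis, with SE) of each gene as deposited (blue circles) and with the GC and length trend of each library removed (red diamonds), in 3 comparisons with SCR. NOTCH1 moves from 0.51 to 0.17 over both lines and from 0.48 to 0.20 in H1, and NOTCH3 changes sign in all 3. HES5 in MEL1 is not drawn.

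Removal of the trend lowered the MEL1 averages of NOTCH1, DLL3 and HES4, while HES5, also rich in GC, was called with and without it. Log2 fold changes went from 0.60 to 0.13 for NOTCH1, from 1.02 to 0.42 for DLL3 and from 1.19 to 0.27 for HES4, while JAG1, with a GC content of 49.6%, went from 0.25 to 0.35. In that fit NOTCH2 passed in the MEL1 average (log2 0.50, SE 0.11, edgeR adjusted p 0.0222), where 4.43% of all genes were called. Its difference between the lines in the knockdown effect passed as well (log2 0.61, SE 0.13, edgeR adjusted p 0.0262), where 3.07% of all genes were called. The KD2 library is the 1 MEL1 knockdown library with a NOTCH2 level above SCR.

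The second comparison sets MEL1 against H1 with the same hairpins, averaged over SCR, KD1 and KD2. The ligands DLL1 and DLL3 and the targets HES4, HES5 and HEY1 were all lower in MEL1, as were NOTCH1, NOTCH2 and JAG1, and NOTCH3 and HES1 did not pass. edgeR called 8 of the 10 genes, each lower in MEL1, where 49.1% of all genes were called and 26.2% were called lower, and DESeq2 called the same number, beside 46.7%. The median log2 difference of the 10 genes was -1.06, beside -0.09 over all genes tested. The lines differ in many genes, and 8 of 10 is to be read against that share.

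HES5 had the largest difference. It was at least 334-fold higher in H1 than in MEL1 with SCR, where MEL1 is listed at 0, 23.5-fold higher with KD1 and 54.6-fold higher with KD2 (edgeR adjusted p 5.46e-08 over the 3 hairpins). DLL1 followed with a log2 difference of -2.53 (SE 0.18, edgeR adjusted p 2.76e-06), from 83.8 ± 17.0 CPM (SD, n = 8) in H1 to 13.6 ± 1.39 CPM (SD, n = 4) in MEL1. HES4 differed by -2.38 (SE 0.33, edgeR adjusted p 0.000719) and HEY1 by -2.33 (SE 0.18, edgeR adjusted p 2.03e-06). For DLL1, HES4, HES5, HEY1, NOTCH1 and JAG1, all 4 MEL1 libraries lay below all 8 H1 libraries, as for 13.0% of all genes.

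The receptors differed less between the lines than HES5, DLL1, HES4 and HEY1. NOTCH1 had a log2 difference of -0.99 (SE 0.10, edgeR adjusted p 1.47e-05) and NOTCH2 of -0.44 (SE 0.09, edgeR adjusted p 0.00249), and the NOTCH2 value was -0.84 without the MEL1 KD2 library. NOTCH3 differed by -0.14 (SE 0.09, edgeR adjusted p 0.225), and by 0.27 in the other direction (SE 0.06, edgeR adjusted p 0.00110) with the GC and length trend removed. JAG1 had a log2 difference of -0.97 (SE 0.09, edgeR adjusted p 6.64e-06) and DLL3 of -1.14 (SE 0.16, edgeR adjusted p 0.000156). HES1 was the target closest to equal, with -0.34 (SE 0.14, edgeR adjusted p 0.0743), and it passed with the trend removed (-0.51, SE 0.10, edgeR adjusted p 0.000894). HES4 had a log2 difference of -1.54 with the trend removed and still passed. With the trend removed all 10 genes passed, 9 of them lower in MEL1 and NOTCH3 higher, where 55.2% of all genes were called, and without the filter on low counts 9 passed, where 31.8% were called.

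**Figure D4:**
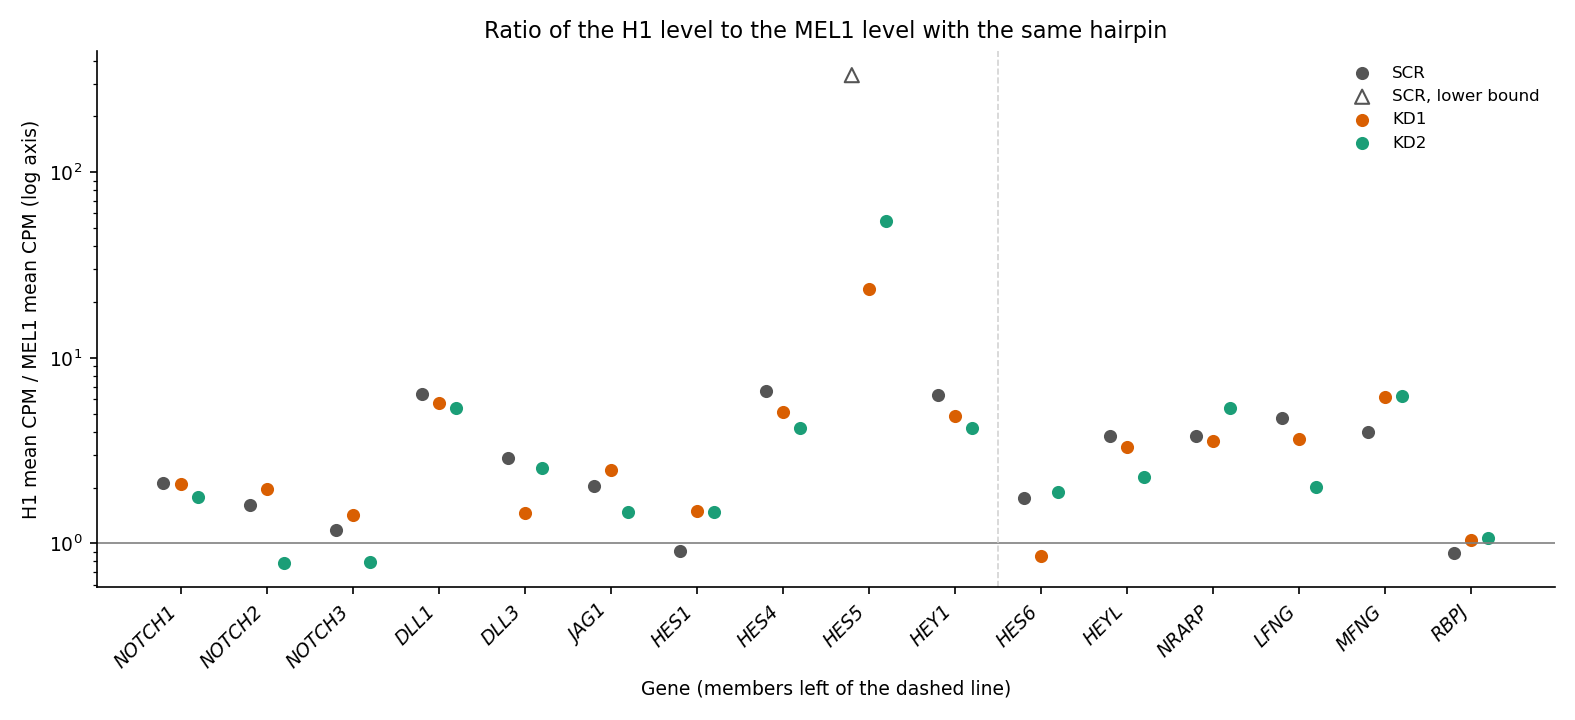
Ratio of the mean level in H1 to that in MEL1 with the same hairpin (log axis) for the 10 genes and 6 others of the pathway. Points are SCR, KD1 and KD2, the open triangle is a lower bound for HES5 with SCR, and the line marks equal levels. DLL1, HES4, HES5 and HEY1 lie above 4 with each hairpin, while NOTCH2, NOTCH3, HES1, HES6 and RBPJ lie on both sides of 1.

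Markers of the cells in the aggregates differed between the lines in the same samples. All 6 neural progenitor markers and all 6 neuron markers were called lower in MEL1 and all 5 pluripotency markers were called higher. Of the 5 neural crest markers 4 were called higher in MEL1 and 1 lower, with a median log2 difference of 2.33. All 4 of the surface ectoderm markers tested were called higher, with a median of 1.43. KRT8, KRT18 and EPCAM held nearly all of that list's level, at 541 to 736, 324 to 480 and 115 to 230 CPM in MEL1. TP63 had 0 to 1.29 CPM in MEL1, and KRT5, which was not tested, had 0 CPM in all 4 MEL1 libraries. The summed level of the neural progenitor markers was 1368 to 1952 CPM in H1 and 676 to 977 CPM in MEL1, that of the neuron markers 391 to 611 and 131 to 173 CPM, and that of the pluripotency markers 1099 to 1342 and 2151 to 3732 CPM. PAX6 had 95.8 to 224 CPM in H1 and 0.204 to 2.92 CPM in MEL1. Of the 5 endoderm markers, SOX17, FOXA2 and GATA6 were under 1 CPM in every library. CXCR4, which other cells also express, had 6.62 to 58.0 CPM, and AFP had 3.07 CPM in MEL1 SCR, 7.89 in MEL1 KD2 and under 1 CPM in the other 10 libraries. The part of the makeup of the aggregates in the lower HES5, DLL1, HES4 and HEY1 levels of MEL1 was not tested.

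Between SCR and knockdown in H1, the marker sums overlapped for every cell type but endothelium. Sums can hide single genes. In the H1 average 1 of the 6 neuron markers was called lower and 0 higher, with 4 fold changes negative and 2 positive. Of the 5 neural crest markers 2 were called lower and 0 higher, with 4 negative and 1 positive. STMN2 had 128 and 129 CPM with SCR and 65.5 to 108 CPM with the hairpins. FOXD3 had 5.66 and 3.17 CPM with SCR and 0.692 to 2.91 CPM with the hairpins. In MEL1, with 1 SCR library, the sums of neural progenitor, mesoderm, endothelial and surface ectoderm markers did not overlap. The mesoderm sum there was 8.25 CPM with SCR and 14.5 to 21.8 CPM with the hairpins. The endothelial sum was 118 and 64.3 to 108 CPM, and the surface ectoderm sum 1438 and 1040 to 1155 CPM. In H1 the neural progenitor sum was 1407 and 1425 CPM with SCR and 1368 to 1952 CPM with the hairpins, with 3 of the 6 genes called higher and 1 called lower in the H1 average. In MEL1 it was 977 CPM with SCR and 676 to 753 CPM with the hairpins, below SCR in 3 of 3 libraries. Of its 6 genes, SOX2 and FABP7 were called lower in the MEL1 average, while SOX1 (4.77 CPM with SCR, 7.52 to 8.34 with the hairpins), PAX6 (0.204, and 0.430 to 2.92) and LHX2 (0.613, and 1.32 to 2.25) were above SCR in 3 of 3 libraries and did not pass. The endothelial sum was 161 and 164 CPM with SCR and 67.2 to 91.7 CPM with the hairpins in H1, with 1 of 5 genes, KDR, called lower. KDR made up most of that sum, at 153 and 157 CPM with SCR and 59.6 to 88.2 CPM with the hairpins. PECAM1, CDH5, TEK and ERG had at most 4.62 CPM in H1. Of the 5 pluripotency markers, POU5F1 and NANOG were called lower in the H1 average. For NANOG this did not hold with KD3. It had 7.04 and 6.12 CPM with SCR, 1.52 and 1.76 with KD1, 4.15 and 1.91 with KD2, and 8.60 and 6.79 with KD3. The part of the cell type markers in the values of NOTCH1, DLL3 and HES5 was not tested.

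Of 61 further genes of the pathway, in 6 lists by role, all were tested. Over both lines edgeR called 0 of the 61, where 0.213% of all genes were called, with 22 at an unadjusted p under 0.05, beside 15.7% of all genes, and DESeq2 called 8, beside 5.0%. Their median log2 fold change was 0.20, and 49 of the 61 were positive, beside 55.1% of all genes. In the H1 average, edgeR called 7 of the 61 higher and 0 lower, where 7.16% of all genes were called and 2.23% were called higher, and the median was 0.20, beside 0.01 over all genes. After removal of the trend on GC content and length it called 15 higher and 1 lower there, beside 13.4% of all genes. In the MEL1 average it called 7 higher and 0 lower as deposited, where 4.45% of all genes were called and 2.93% were called higher, with a median of 0.20 beside 0.07, namely APH1A, FURIN, LFNG, MIB2, DTX1, DTX4 and CTBP1. APH1A is a γ-secretase subunit (log2 0.72, SE 0.13) and FURIN the protease that cuts receptors on their way to the surface (1.21, SE 0.16). These calls rest on the 1 MEL1 SCR library with its GC rho of -0.568. With the trend removed APH1A (0.52, SE 0.11), FURIN (0.76, SE 0.10) and DTX4 (0.70, SE 0.11) were still called and the other 4 were not. That fit called 6 of the 61 higher and 2 lower, beside 4.43% of all genes. APH1B, NCSTN and POFUT1 were the others called higher. The 2 called lower were the Notch target NRARP (-0.92, SE 0.17) and EP300 (-0.47, SE 0.11). NRARP had 24.7 CPM with SCR in MEL1 and 16.3 to 31.3 CPM with the hairpins. The difference of the knockdown effect between the lines was called for FURIN (0.99, SE 0.19, edgeR adjusted p 0.0483), the 1 gene of the 61 called there, beside 0.598% of all genes, and 3 were called with the trend removed, beside 3.07%.

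The genes called in the H1 average come from 5 of the 6 lists. DLK1, a ligand-like membrane protein without the domain that activates receptors, had 1042 and 784 CPM with SCR and 1380 to 2321 CPM with the hairpins, and rose by 0.83 on the log2 scale (SE 0.18, edgeR adjusted p 0.0269). The Fringe glycosyltransferases MFNG (0.74, SE 0.15) and RFNG (0.45, SE 0.12), which modify receptors and set their response to ligands, rose in the H1 average, and LFNG (0.25, SE 0.13) did not pass. RFNG was called in 5 of 19 alternative fits, with log2 fold changes of 0.26 to 0.57 and edgeR adjusted p up to 0.314. NEURL1B, a ubiquitin ligase that acts on ligands, rose by 0.62 (SE 0.16) and was called in 12 of the 19, with values of 0.36 to 0.95. The acetyltransferases KAT2A and KAT2B, coactivators of the nuclear complex, rose by 0.49 (SE 0.11) and 0.88 (SE 0.17). OLIG2, a factor of motor neuron and oligodendrocyte progenitors, rose by 1.20 (SE 0.32) from a low level of 1.54 and 0.894 CPM with SCR to 1.54 to 3.42 CPM, and was called in 10 of the 19, with values of 0.86 to 1.65. The other 4 genes were called in 15 to 17 of the 19, and none of the 7 was called without the second H1 SCR library. As deposited, the other targets HES2, HES3, HES6, HES7, HEY2, HEYL and NRARP were not called in the H1 average by edgeR. Of these 7, 3 had an unadjusted edgeR p under 0.05 and 1 was called by DESeq2. With the GC and length trend removed edgeR called HES7 (1.14, SE 0.31, adjusted p 0.0276), where 13.4% of all genes were called. HES7 had 1.62 to 6.93 CPM in H1.

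**Figure D5:**
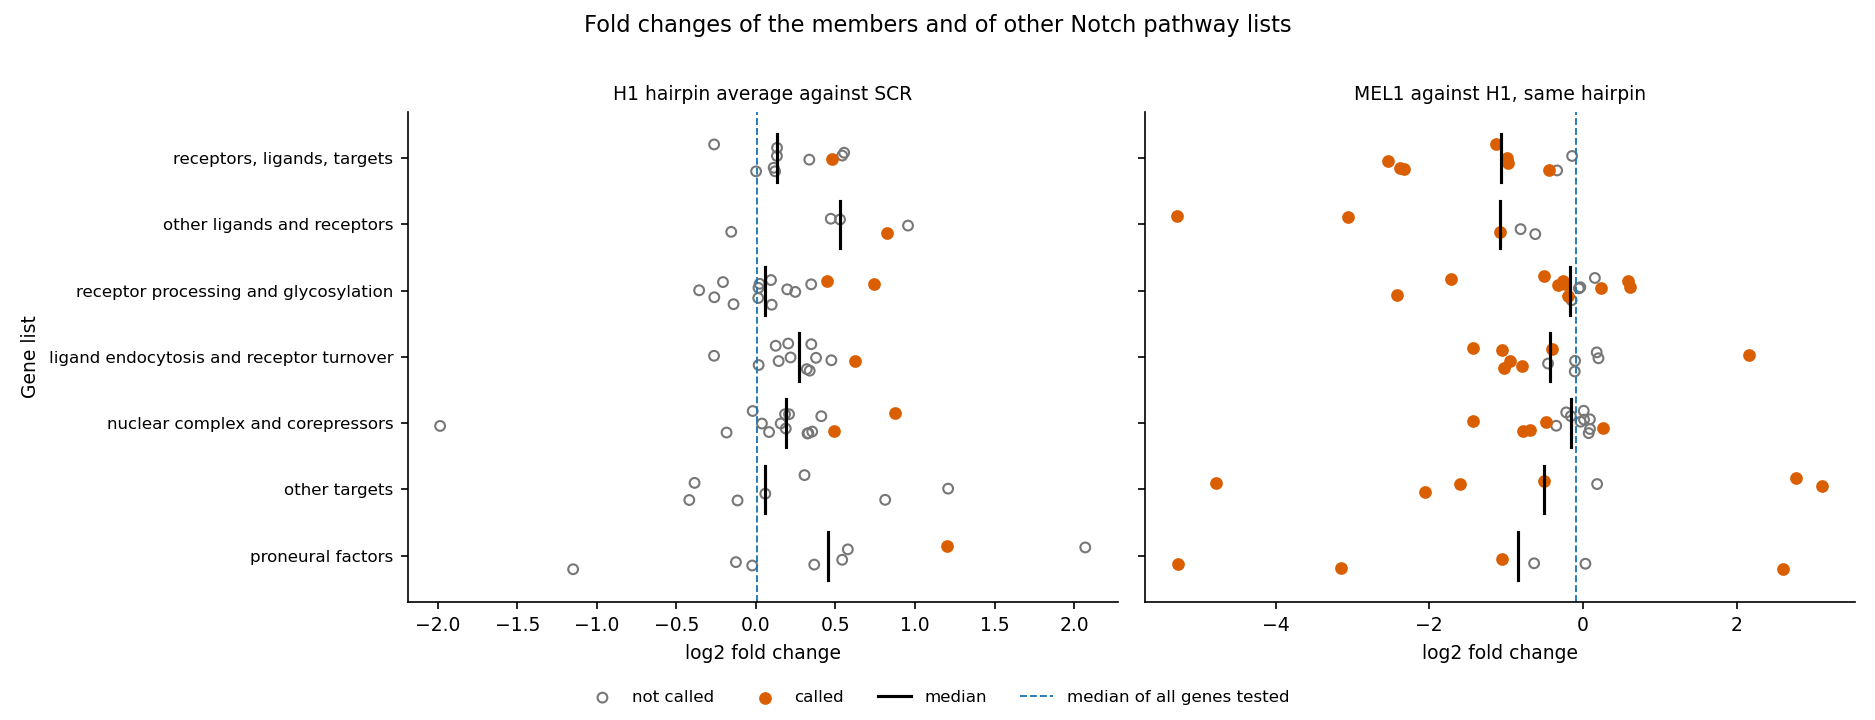
Log2 fold change of single genes (points) in the H1 hairpin average against SCR (left) and in MEL1 against H1 (right), for the 10 genes and 6 lists of other pathway genes. Filled points were called by edgeR, black bars are list medians and the dashed line is the median of all genes. Called genes of the 6 lists are all positive on the left, 7 of 61. On the right, genes listed at 0 in a group of either line (HES5, MAML1, NEUROD1 and ATOH1) are not drawn.

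Between the lines, edgeR called 29 of the 61 genes lower in MEL1 and 9 higher, where 49.1% of all genes were called and 26.2% were called lower, with a median log2 difference of -0.33. The Notch targets NRARP, a feedback inhibitor (-2.06, SE 0.14), and HEYL (-1.61, SE 0.13) were lower in MEL1, as were the Fringe genes LFNG (-1.71, SE 0.12) and MFNG (-2.42, SE 0.14). The ligand-like DLK1 (-5.28, SE 0.20) and the ligand JAG2 (-1.08, SE 0.15) were lower as well. RBPJ, the DNA-binding factor through which the receptors act, had 130 ± 20.7 CPM in H1 (SD, n = 8) and 125 ± 10.3 CPM in MEL1 (SD, n = 4), with overlapping ranges. Of the proneural genes, NEUROG2 was lower in MEL1 (-5.26, SE 0.27). HES2 and HES3 were higher in MEL1, by 3.12 (SE 0.22) and 2.76 (SE 0.20). These genes of the line comparison were chosen after their values were seen.

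The genes most like each member across the 12 libraries were found by Pearson's r of log2(CPM + 1) after each line's mean had been subtracted, among 11947 genes whose mean was 5 CPM or more. The libraries share depth and GC trends, so r is given as a description. The 3 genes most like NOTCH1 were LRP5 (r = 0.960), TNK2 (0.951) and TMCC2 (0.946), and those most like NOTCH2 were DACT1 (0.980), LRP4 (0.976) and MPRIP (0.974). NOTCH3 was most like PXN (0.955), FHIP1B (0.943) and PTPRF (0.938). DLL1 had the weakest matches, KLHL29 (0.821), ZNF385B (0.812) and HS3ST3B1 (0.810), DLL3 was most like FHL1 (0.953), FBXW4 (0.934) and SERINC2 (0.933), and JAG1 like UBQLN4 (0.950), RTN4RL1 (0.945) and VANGL2 (0.945). HES1 was most like MXRA7 (0.871), RP9 (0.860) and KRT10 (0.852), and HES4 like NARF (0.959), SLC2A1 (0.957) and VPS37D (0.939). HES5 was most like NKAIN4 (0.948), ITGB5 (0.923) and METTL25B (0.916), and HEY1 like SPG21 (0.930), PPP3R1 (0.864) and UBE2D2 (0.854). No member was among the 3 genes most like another. The highest r between members was 0.787, for NOTCH2 with JAG1, and that pair is high together in the MEL1 KD2 library and had an r of 0.263 over the 8 H1 libraries by themselves.

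The transcripts of the 10 genes hold GGACT, the commonest form of the motif at which the METTL14 complex methylates RNA, at a median of 1.33 per kilobase, beside 0.936 over 16518 tested protein-coding genes. HES5 (2.30) and HEY1 (2.18) had the most and JAG1 (0.673) the fewest per kilobase of the longest transcript. No methylation was measured in these libraries, and the motif count does not say which sites carry the mark.

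In GENCODE 29 on GRCh38, the receptor genes lie on the minus strand, NOTCH1 (ENSG00000148400) at chromosome 9, 136494433 to 136545786, NOTCH2 (ENSG00000134250) at chromosome 1, 119911553 to 120069626, and NOTCH3 (ENSG00000074181) at chromosome 19, 15159038 to 15200981. The ligand genes are DLL1 (ENSG00000198719) at chromosome 6, 170282206 to 170306565, minus strand, DLL3 (ENSG00000090932) at chromosome 19, 39498895 to 39508481, plus strand, and JAG1 (ENSG00000101384) at chromosome 20, 10637684 to 10673999, minus strand. The target genes are HES1 (ENSG00000114315) at chromosome 3, 194136145 to 194138732, plus strand, HES4 (ENSG00000188290) at chromosome 1, 998962 to 1000172, minus strand, HES5 (ENSG00000197921) at chromosome 1, 2528745 to 2530245, minus strand, and HEY1 (ENSG00000164683) at chromosome 8, 79764010 to 79767863, minus strand. NOTCH1 overlaps AL592301.1 and HES5 overlaps AL139246.5 on the opposite strand, with the same uncertainty as for DLL1 and JAG1.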

How the data were processed

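RNA from 12 libraries was measured by stranded total RNA sequencing. The authors deposited 1 table of estimated counts per Ensembl gene, not normalized. fastp and kallisto are named in the submitters' processing notes, and their versions, the genome build and the annotation of the table are not given in the sources used here. Between 14.7% and 20.7% of the values of a library were not whole, and the estimated counts were rounded. Of the 65969 identifiers, 41981 have a symbol.

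edgeR 4.0.16 (R 4.3.3, limma 3.58.1) was run with filterByExpr over the 7 groups, scaling by the trimmed mean of M-values, robust quasi-likelihood fits and Benjamini-Hochberg adjustment over the 24898 genes tested, with calls made at an adjusted p under 0.05. The comparison over both lines had the line as covariate, and all others came from a model of the 7 group means over the 12 libraries. Alternatives were other scalings, other filters, DESeq2 1.42.0, removal of a GC and length trend from each library (5 and 4 spline degrees of freedom, for the 90.6% of tested genes with both values), H1 by itself, group means over both lines, and leaving out each library. The code was tested on simulated data with 200 changed genes. Replicate libraries differed far beyond sampling noise, with a chi-square per gene of 21.3 to 31.9.

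All 10 genes are described. Of the other pathway genes, those called over both lines or in the H1 average are named, at most 4 per list, with others where a count needs them. The 10 genes and the lists were chosen with earlier results of these data known.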

Additional observations from a re-analysis of the deposited data

Results flagged for a closer look

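Among the 6 H1 knockdown libraries, the DLL1 level of the second KD3 library stood apart at 114 CPM, beside 74.9 to 85.8 CPM in the other 5. Its gap to the nearest library was 0.724 of the whole range of the 6 and exceeded the critical value of Dixon's test for 6 values. The highest and the lowest library of 11 genes were examined in this way, and chance flags about 1 in 20 groups.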

How the results depend on the processing

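For HES5 in MEL1 the SCR library has 0 counts of 15963241, so its fold is a lower bound. No paired analysis was possible because the labels carry no replicate numbers. The number of Notch genes called moved as follows, and the cause was not tested. Over both lines it was 0, with 2 by DESeq2 and 3 with group means (NOTCH1, DLL3 and HES5). In the H1 average it was 1, with 3 without a filter on low counts, 0 with the GC and length trend removed and 2 by DESeq2. With KD1 it was 0, with 2 without a filter and 1 by DESeq2, with KD2 0, 3 and 1 in the same order, and with KD3 0, 3 and 2, or 3 with the trend removed. Between the H1 hairpins it was 0, with 2 without a filter and 3 with the trend removed. In the MEL1 average it was 1, with 4 without a filter, 2 with the trend removed and 3 by DESeq2. For the difference of the effect between lines it was 0, with 1 without a filter, 2 with the trend removed and 1 by DESeq2. Leaving out 1 library gave 0 to 1 over both lines, 0 to 1 in the H1 average, 0 to 2 with KD1, 0 to 0 with KD2, with KD3 and between hairpins, 1 to 2 in the MEL1 average, 0 to 1 for the difference between lines and 8 to 9 for MEL1 against H1. Without the first H1 SCR library NOTCH1 and NOTCH3 were called with KD1, and without the second MEL1 KD1 library NOTCH1 was called over both lines.

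Signs changed for small log2 values. With the GC and length trend removed, NOTCH3 was -0.14 over both lines, -0.14 in the H1 average, -0.075 in the MEL1 average and 0.27 in MEL1 against H1, NOTCH2 was -0.14 in the H1 average and DLL1 was -0.098 in the MEL1 average. HEY1 was -0.0033 in the MEL1 average with upper-quartile scaling. With 1 library left out, NOTCH2 over both lines ranged from -0.087 (without MEL1 KD2) to 0.17, DLL1 from -0.046 (without the second H1 SCR library) to 0.41 and HES1 from -0.33 to 0.12 (without MEL1 SCR). In the H1 average the lowest values came without the second H1 SCR library and the highest without the first, from -0.025 to 0.039 for NOTCH2, -0.038 to 0.34 for NOTCH3, -0.22 to 0.58 for DLL1 and -0.11 to 0.39 for HES1. In the MEL1 average, NOTCH2 ranged from -0.28 to 0.48 and JAG1 from -0.074 to 0.25, both lowest without the KD2 library, and HEY1 from -0.042 to 0.14, lowest without the second KD1 library.

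Over all genes, calls over both lines numbered 53, with 1246 by DESeq2 and 2478 with group means. Calls in the H1 average numbered 1783, with 2696 by DESeq2, 3034 with the trend removed, 3256 without a filter and 123 without the second H1 SCR library.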
